A study of Homo sapiens with 208 samples.

Results

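The genes described here are 39 genes of G2 phase and mitosis, from the cyclin B and CDK1 complex to the kinesins, the kinetochore and the contractile ring. They were chosen by name, by a rule that uses no measured value, although earlier results of these data were known when the list was made. Probes of 38 of them were matched by accession, among 16961 genes with a matched probe, and all 38 were among the 13263 genes tested. UBE2C, the ubiquitin-conjugating enzyme of the anaphase-promoting complex, had no matched probe and has no value here. The study followed PC9, a human lung adenocarcinoma cell line that depends on an EGFR with an activating deletion, and PC9M2 (labelled PC9GRM2), 1 gefitinib-resistant clone that was derived from PC9 by long culture in the drug. Both lines were starved for 48 h. They then received no treatment, 0.5 µM gefitinib (an inhibitor of the EGFR kinase) from -2 h, 100 ng/ml EGF (the ligand of EGFR) from 0 h, or both. RNA was sampled 26 times between 0 and 24 h and hybridised to 1-colour arrays, with 1 array for each time point, line and treatment. The 0 h arrays of gefitinib-treated cells therefore already carry drug exposure.

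Cells enter mitosis when CDK1, bound to a B-type cyclin, is activated by phosphatases of the CDC25 family and by feedback from PLK1 and the Aurora kinases. The spindle assembly checkpoint then holds the anaphase-promoting complex (APC/C) and its activator CDC20 inactive until every kinetochore is attached to microtubules. Many of the genes for this machinery are transcribed late in the cell cycle under FOXM1 and the MYBL2-containing MuvB complex, and they are repressed by the DREAM complex in cells that have left the cycle, so that their RNA is widely read as a mark of proliferation. Bulk RNA of whole cultures was measured, so fewer cells in G2 and M phase and less RNA per such cell cannot be told apart.

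Levels are log2 normalized intensities of 1 probe per gene, and a difference is a difference of log2 levels, so that 1 is a change of 2-fold. The 26 arrays of a course took the place of replicates, and a course was compared with another at matched time points, so each p-value measures the spread of the difference over time points of 1 culture series. Neighbouring time points were not independent. The median correlation of a member's difference with that at the next time point was 0.6 for gefitinib in PC9 and 0.54 in PC9M2. No member spot was saturated, although 183 to 1616 features per array were saturated in PC9 and 0 in PC9M2. The 4 treatments of a time point shared a slide, always at the same positions, so slide position and treatment cannot be told apart. No slide or scan day held both lines, and scan day and line therefore cannot be told apart either. The epithelial markers EPCAM, CDH1, KRT8, KRT18 and KRT19 were above background on all arrays. Of 7 markers of blood, endothelial and stromal cells with a probe, PTPRC, COL3A1 and DCN were above background on at most 1, 3 and 7 of the 26 arrays of any course and CD3E on at most 15, whereas CD14 and VWF were above background on all arrays and PECAM1 on at least 25. Of the 4 markers that were tested, with gefitinib in PC9 VWF rose (1.76 ± 0.15), PECAM1 fell (-0.17 ± 0.05), and CD14 (0.04 ± 0.09) and CD3E (-0.08 ± 0.10) were not called. In PC9M2 VWF (1.08 ± 0.15), CD14 (0.63 ± 0.11) and PECAM1 (0.59 ± 0.16) rose and CD3E (0.08 ± 0.09) was not called. Between the untreated lines PECAM1 (-1.50 ± 0.09) and VWF (-1.02 ± 0.08) were lower in PC9M2, and CD14 and CD3E were not called. The summed linear intensity of the 4 ranged over the arrays from 805 to 1840 in untreated PC9, from 958 to 1900 in PC9 with gefitinib, from 385 to 622 in untreated PC9M2 and from 322 to 1430 in PC9M2 with gefitinib. Their part in the results was not tested.

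The promoters of the members share short motifs that the choice of genes did not use. RefSeq (GRCh38.p14) gives a promoter for 33 of the 39 genes. The hexamer TTTGAA, the core of the cell cycle genes homology region (CHR) that the DREAM and MuvB complexes bind, lay on either strand within the 250 bases before the start of 20 of these 33 genes, against 16.1% of all 27305 genes with a promoter. The pentamer CCAAT, the box bound by NF-Y, lay there on either strand in 27 of the 33, against 37% of all genes. Both lay in 1 window of 18 of the 33, against 5.79% of all genes, where neither motif contains the other, although neighbouring matches can share a base. The 120 bases before the start are shown for 3 members that were lower with gefitinib late in the PC9 course (CDK1, CKS1B and PRC1), 2 that were called higher in all 3 windows of it (PLK1 and CCNB2) and 1 that moved from higher to a level not called (KIF4A), with both motifs in capitals, as TTTGAA and as CCAAT or its reverse complement ATTGG.
CDK1: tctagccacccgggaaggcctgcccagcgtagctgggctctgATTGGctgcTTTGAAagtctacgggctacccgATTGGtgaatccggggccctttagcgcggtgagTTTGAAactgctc
CKS1B: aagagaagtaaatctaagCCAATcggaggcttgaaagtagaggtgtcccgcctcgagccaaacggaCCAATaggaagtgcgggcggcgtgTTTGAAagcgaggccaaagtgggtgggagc
PRC1: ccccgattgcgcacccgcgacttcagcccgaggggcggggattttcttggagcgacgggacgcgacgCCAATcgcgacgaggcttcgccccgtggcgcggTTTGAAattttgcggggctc
PLK1: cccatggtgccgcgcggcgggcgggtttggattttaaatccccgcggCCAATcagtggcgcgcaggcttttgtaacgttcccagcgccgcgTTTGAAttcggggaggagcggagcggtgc
CCNB2: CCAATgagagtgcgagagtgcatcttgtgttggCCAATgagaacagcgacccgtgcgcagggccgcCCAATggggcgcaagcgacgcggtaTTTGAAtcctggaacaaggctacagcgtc
KIF4A: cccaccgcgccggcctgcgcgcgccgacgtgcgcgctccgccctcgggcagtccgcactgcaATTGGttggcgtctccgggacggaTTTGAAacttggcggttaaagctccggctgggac
These are chr10:60778358-60778477 on the plus strand (CDK1), chr1:154974561-154974680 on the plus strand (CKS1B), chr15:90994536-90994655 on the minus strand (PRC1), chr16:23678769-23678888 on the plus strand (PLK1), chr15:59105026-59105145 on the plus strand (CCNB2) and chrX:70289984-70290103 on the plus strand (KIF4A). CDK1 has 2 annotated starts, and the window of the downstream start is shown. All genes shown are among the 18 with both motifs, so a hexamer shared among them says nothing about the direction of response. The hexamer lay at 29 bases before the start in PLK1 and in CCNB2 and at 30 in CKS1B, counted from its first base. Over the 33 members, the late difference with gefitinib in PC9 had a median of -0.68 (range -1.85 to 1.02) in the 20 with TTTGAA and of -0.36 (range -1.90 to 0.33) in the 13 without. The ranges overlapped, and a match of letters does not show that a factor binds there.

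The 4 treatments allow the question of how inhibition of EGFR changed these genes in the sensitive line to be asked at each time point. In PC9 the members did not move as a block. In the first hours 20 of 38 were called higher with gefitinib and none lower, in the last hours 25 were called lower, and BIRC5 and PLK1 were among the few called higher in every window. Averaged over all 26 time points, 9 of the 38 members rose and 15 fell, against 35.1% and 37.2% of all tested genes, which is close to the background share. The median difference was -0.14 for the members and -0.02 for all tested genes, and the members ranged from -1.08 to 0.79. At time points 3 h apart 5 rose and 7 fell, and with the variance inflated for the correlation of neighbouring time points 7 rose and 2 fell. The share of all tested genes called is not given for these or any later alternative settings. Counts under those settings cannot be read as particular to the members. The members higher under all 13 alternative settings were CCNB2, PLK1, NEK2, KIF20A and BIRC5, and CDC20 was the member lower under all of them. The windows of the course show when each direction held.

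Between 0 and 8 h (10 time points), 20 of the 38 members were higher with gefitinib in PC9 and 0 were lower, against 20.1% and 18.9% of all tested genes. The median difference of the members in this window was 0.32. Between 9 and 16 h (8 time points), 7 members were higher and 16 lower, against 31.1% and 34.3% of all genes, with a median of -0.21. Between 17 and 24 h (8 time points), 4 were higher and 25 lower, against 33.2% and 35.7% of all genes, with a median of -0.55. The test of the late against the early difference called 31 of the 38 members as falling and 2 as rising, where 25% and 24.4% of all genes were called in these directions (11 and 0 members at time points 3 h apart). The change from early to late was 2-fold or more downwards in 15 members. The share of all genes with a change of that size is not given here.

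The mean of the 38 members, each taken relative to its own mean over all arrays, shows the same course as levels. Without treatment the mean of PC9 lay between 0.08 and 0.34 in the first window and between 0.17 and 0.56 in the last. With gefitinib it was 0.20 at 0 h, 0.66 at 6 h and -0.63 at 24 h. The difference between both courses was -0.03 at 0 h, 0.58 at 5 h, 0.23 at 9 h, -0.32 at 10 h and -1.04 at 24 h, so it was above 0 at 9 of 10 early time points and below 0 at all 8 late ones. The step between 9 and 10 h also lies between 2 scan days. Over that step the mean fell from 0.63 to 0.08 with gefitinib, while it was 0.41 and 0.40 without treatment on the same slides. The difference between gefitinib with EGF and EGF alone, also on these slides, was 0.35 at 9 h and 0.32 at 10 h. The part of the scan day in this step was not tested.

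**Figure D1:**
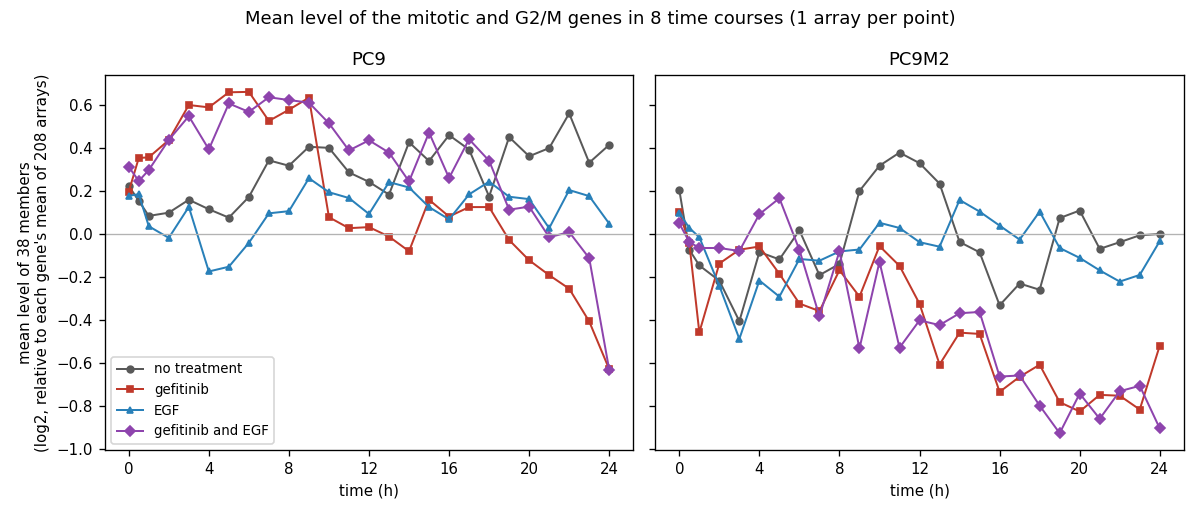
Mean level of the 38 members (log2, relative to each gene's mean over all arrays) against time in hours, for the 4 treatments in PC9 (left) and PC9M2 (right). Each point is 1 array. In PC9 the gefitinib course lies above the untreated course from 0.5 to 9 h and falls to -0.63 at 24 h. In PC9M2, from 9 h on, the gefitinib course lies below the untreated course and the course with gefitinib and EGF below that with EGF.

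Of the cyclin-CDK1 complex and its regulators, 2 of 8 rose and 5 fell with gefitinib in PC9 over the whole course. Of all tested genes 35.1% rose and 37.2% fell, and no role group was tested as a set. CDK1, the kinase that drives entry into mitosis, ranged from 10.99 to 12.89 without treatment (median 12.11) and from 9.61 to 12.50 with gefitinib (median 11.74), its lowest level falling at 24 h. The ranges of the 2 courses overlapped, and CDK1 was 0.41 ± 0.14 (SE, 10 time points) higher with gefitinib in the early window and 1.35 ± 0.16 (8 time points) lower in the late window. CKS1B, a small subunit that binds CDKs, ranged from 10.78 to 12.37 without treatment (median 11.86) and from 9.26 to 12.11 with gefitinib (median 11.04). Its difference was 0.07 ± 0.16 early and -1.83 ± 0.18 late, and the early value was not called. CDKN3, a phosphatase that acts on CDKs, behaved much like CKS1B in this course, with a correlation of 0.97 over the 26 gefitinib arrays. It ranged from 11.61 to 12.49 without treatment and from 9.47 to 12.15 with gefitinib, and the late difference was -1.85 ± 0.16. The related subunit CKS2 had a late difference of -1.32 ± 0.15 and the cyclin CCNA2, which acts in S and G2 phase, one of -0.71 ± 0.10. The B-type cyclins parted. CCNB1 ranged from 12.82 to 13.55 without treatment (median 13.28) and from 12.51 to 13.75 with gefitinib (median 13.30), and it was 0.26 ± 0.08 higher early and 0.34 ± 0.09 lower late. CCNB2 ranged from 12.34 to 13.08 without treatment and from 12.32 to 13.65 with gefitinib, and it was higher at 25 of 26 time points, by 0.56 ± 0.06 (limma, adjusted p = 5.51e-09). CDC25C, the phosphatase that activates CDK1, had the largest early difference of any member, 1.16 ± 0.14, and a late difference of -0.33 ± 0.15 that was not called.

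Among the mitotic kinases, PLK1 and NEK2 rose, AURKB fell and AURKA was not called, where 35.1% of all tested genes rose and 37.2% fell. PLK1, which acts from mitotic entry to cytokinesis, ranged from 7.65 to 9.28 without treatment (median 8.46) and from 8.53 to 9.99 with gefitinib (median 9.23). It was higher with gefitinib at 23 of 26 time points, by 0.70 ± 0.09, and the difference widened from 0.33 ± 0.12 early to 1.02 ± 0.14 late. The widening of 0.69 ± 0.18 passed the test (limma, adjusted p = 0.00284), against the direction of most members. NEK2, which helps centrosomes to separate, was 0.47 ± 0.11 higher over 25 time points, 1 spot being removed as an outlier. AURKA, the centrosomal Aurora kinase, ranged from 11.28 to 12.27 without treatment (median 11.82) and from 10.58 to 12.72 with gefitinib (median 11.81). Its mean difference of -0.05 ± 0.10 was not called because it was 0.39 ± 0.12 early and -0.34 ± 0.13 late, both of which were. AURKB, the Aurora kinase of the chromosomal passenger complex, had a late difference of -1.20 ± 0.18.

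Of the 4 spindle assembly checkpoint genes, none rose over the whole course and BUB1 and MAD2L1 fell, against 35.1% and 37.2% of all tested genes. MAD2L1, the inhibitor of CDC20, ranged from 10.91 to 12.63 without treatment (median 11.98) and from 9.85 to 12.01 with gefitinib (median 10.69). Its difference of -1.08 ± 0.17 was the lowest of the members (lower at 20 of 26 time points, limma, adjusted p = 2.87e-06), and it was -0.15 ± 0.16 early, not called, and -1.90 ± 0.18 late. BUB1B, a checkpoint component at the kinetochore, ranged from 9.26 to 10.83 without treatment (median 9.91) and from 8.86 to 10.77 with gefitinib (median 9.96). It was not called over the whole course (-0.04 ± 0.11) and was 0.38 ± 0.17 lower late. TTK, the kinase at the head of the checkpoint, was 0.53 ± 0.20 higher early and 0.90 ± 0.23 lower late.

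CDC20, which activates the APC/C, ranged from 11.52 to 12.66 without treatment (median 12.03) and from 10.89 to 12.37 with gefitinib (median 11.65). It was lower at 23 of 26 time points, by 0.43 ± 0.10 (limma, adjusted p = 0.000551), and its early difference of -0.13 ± 0.14 was not called. Securin (PTTG1), the inhibitor of separase, was 0.36 ± 0.10 higher early and 0.36 ± 0.11 lower late, and so was not called over the whole course. It shares much of its sequence with PTTG2, and the array may not separate them.

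Of the 5 kinesins, 2 rose and 1 fell, against 35.1% and 37.2% of all tested genes. KIF20A, a motor of the central spindle, ranged from 9.72 to 10.78 without treatment (median 10.36) and from 10.21 to 11.73 with gefitinib (median 10.80). It was higher at 25 of 26 time points, by 0.58 ± 0.08 (limma, adjusted p = 5e-07), with 0.84 ± 0.12 early and 0.33 ± 0.13 late. KIF11, which pushes spindle poles apart, was 0.32 ± 0.09 higher. KIF23, a motor of the midzone that is needed for cytokinesis, was 0.38 ± 0.10 lower, with a late difference of -0.79 ± 0.13.

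At the centromere and kinetochore, CENPF alone of 5 genes was called over the whole course, 0.43 ± 0.11 higher. Of all tested genes 35.1% were called higher and 37.2% lower. CENPA, the histone H3 variant of centromeres, ranged from 9.38 to 10.24 without treatment (median 9.77) and from 8.66 to 10.64 with gefitinib (median 9.59), and the gefitinib range enclosed the untreated range. Its difference was 0.21 ± 0.12 early, not called, and -0.57 ± 0.14 late. The kinetochore motor CENPE and the microtubule-binding subunit NDC80 had late differences of -0.88 ± 0.17 and -0.85 ± 0.17 (over the whole course the 2 probes of NDC80 gave -0.13 and 0.13), and NUF2, the partner of NDC80, one of -0.19 ± 0.15 that was not called.

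Of the 6 genes of the spindle and of cytokinesis, DLGAP5 rose and PRC1, ANLN and ECT2 fell, against 35.1% and 37.2% of all tested genes. ANLN, a scaffold of the contractile ring, was 0.73 ± 0.14 lower over the course, with 0.00 ± 0.14 early and -1.32 ± 0.16 late. ECT2, which activates RhoA at the cleavage furrow, ranged from 5.71 to 8.70 without treatment and from 3.87 to 7.23 with gefitinib. Its difference was -0.91 ± 0.22, but its 3 probes gave -0.91, -0.52 and -0.14, and the probe used was above background on 157 arrays of both lines together. PRC1, which bundles midzone microtubules, was 0.28 ± 0.09 higher early and 0.95 ± 0.11 lower late, and DLGAP5, a spindle protein, was 0.50 ± 0.13 higher early with a late difference of 0.01 ± 0.14.

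In the last group, BIRC5 (survivin, of the chromosomal passenger complex) had the highest difference of all members. It ranged from 10.61 to 12.67 without treatment (median 12.07) and from 11.89 to 13.24 with gefitinib (median 12.75). BIRC5 was higher with gefitinib at 26 of 26 time points, by 0.79 ± 0.08 (limma, adjusted p = 6.12e-10), and the difference grew from 0.48 ± 0.09 early to 1.16 ± 0.10 late. The fitted level of BIRC5 fell by 1.40 from 0 to 24 h without treatment and by 0.68 with gefitinib. FOXM1, the transcription factor of many of these genes, ranged from 10.99 to 12.30 without treatment (median 11.63) and from 10.49 to 11.79 with gefitinib (median 11.32), with 0.30 ± 0.11 early and -1.04 ± 0.12 late. MKI67, which codes for Ki-67, ranged from 7.39 to 8.60 without treatment (median 7.63) and from 6.88 to 8.44 with gefitinib (median 7.45), a difference of -0.23 ± 0.08 (limma, adjusted p = 0.0156). TOP2A, the topoisomerase that untangles sister chromatids, ranged from 10.56 to 11.82 without treatment and from 10.19 to 11.76 with gefitinib, both with a median of 11.12, and was not called in any of the 3 windows.

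**Figure D2:**
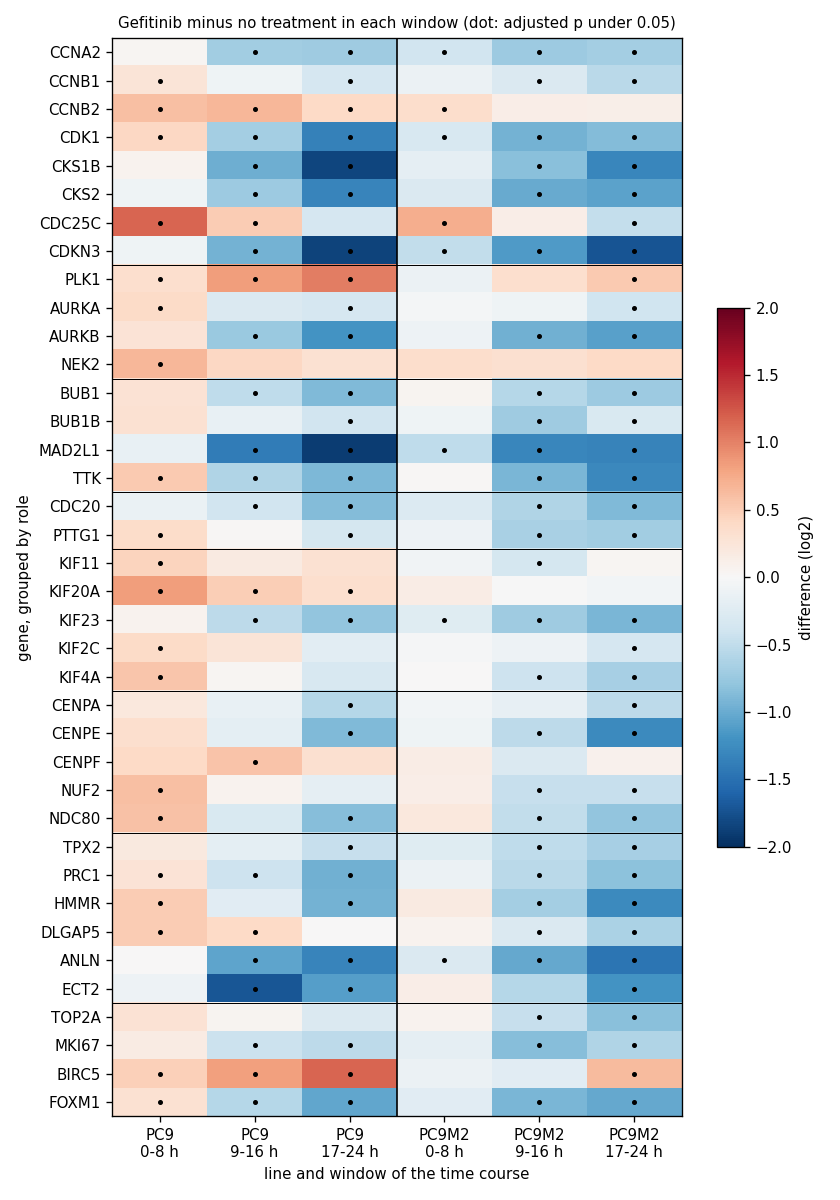
Difference between gefitinib and no treatment (log2, colour) for each of the 38 members (rows, grouped by role and parted by lines) in 3 windows of the course in PC9 and PC9M2 (columns). Black dots mark adjusted p under 0.05 over all tested genes. Red turns to blue from left to right within PC9 for most rows, the rows of BIRC5 and PLK1 grow redder, and PC9M2 has few red cells.

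The resistant line was treated in the same way, and 29 of the 38 members fell with gefitinib there. In PC9M2, 2 members rose and 29 fell over the whole course, against 32.6% and 34.2% of all tested genes. The median difference was -0.42 for the members and -0.01 for all tested genes, and the members ranged from -1.07 to 0.36. With the variance inflated for the correlation of neighbouring time points 0 rose and 17 fell. In the early window 2 members were higher and 6 lower, against 20.4% and 20.3% of all genes. In the middle window 0 were higher and 27 lower, against 27.8% in each direction, and in the late window 2 were higher and 31 lower, against 29.4% and 32.2%. The test of late against early called 26 members as falling and 2 as rising, where 19.9% and 19.6% of all genes were called (10 and 1 members at time points 3 h apart). The mean of the members was 0.10 with gefitinib at 0 h and between -0.82 and -0.52 from 17 h on, and the difference from the untreated course was below 0 at all 16 time points from 9 h on.

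The largest falls were those of CDKN3, MAD2L1 and ANLN. CDKN3 ranged from 11.13 to 12.83 without treatment (median 12.03) and from 10.39 to 11.87 with gefitinib (median 10.77). It was lower at 25 of 26 time points, by 1.07 ± 0.11 (limma, adjusted p = 3.26e-09). MAD2L1 ranged from 10.80 to 12.82 without treatment (median 12.28) and from 10.19 to 11.48 with gefitinib (median 11.11), a difference of -1.01 ± 0.10. ANLN was 0.87 ± 0.11 lower. CDK1 ranged from 11.53 to 12.53 without treatment (median 12.18) and from 10.82 to 11.97 with gefitinib (median 11.36), a difference of -0.68 ± 0.07 that was already called in the early window (-0.32 ± 0.08). In the early window CDK1 with gefitinib thus lay on average below its control in PC9M2 and above it in PC9. The difference between the lines in that window was not tested, and that over the whole course was not called. FOXM1 ranged from 10.37 to 11.37 without treatment (median 10.97) and from 9.26 to 11.30 with gefitinib (median 10.22), a difference of -0.70 ± 0.09 over 25 time points, 1 spot being removed as an outlier.

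CKS1B ranged from 9.04 to 12.31 without treatment (median 11.62) and from 9.53 to 11.73 with gefitinib (median 10.80), a difference of -0.73 ± 0.12. Its lowest levels fell at 10 to 12 h, in all 4 treatments of PC9M2 and on 1 scan day. From 7 to 9 h to 10 to 12 h the mean level of the probe used changed by -1.91 to -1.49 in the 4 treatments, and that of the other 2 probes by -0.44 to 0.21. The gefitinib difference in PC9M2 was negative for all 3 probes (-0.73, -0.58 and -0.51).

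CCNB1 ranged from 12.44 to 13.54 without treatment (median 12.80) and from 11.88 to 13.07 with gefitinib (median 12.67), and was 0.29 ± 0.06 lower. CDC20 ranged from 10.82 to 12.48 without treatment (median 11.55) and from 10.21 to 11.76 with gefitinib (median 11.06), and was 0.56 ± 0.10 lower. MKI67 ranged from 6.53 to 8.51 without treatment (median 7.27) and from 5.81 to 7.54 with gefitinib (median 6.78), and was 0.52 ± 0.10 lower. The cyclin, the APC/C activator and Ki-67 were thus lower with gefitinib than without treatment within the resistant line, each with overlapping ranges. TOP2A ranged from 9.90 to 11.92 without treatment and from 9.88 to 11.11 with gefitinib, a difference of -0.37 ± 0.09. BUB1B ranged from 9.12 to 10.52 without treatment and from 8.51 to 9.96 with gefitinib, a difference of -0.35 ± 0.08. CENPA ranged from 8.38 to 10.11 without treatment and from 8.37 to 9.95 with gefitinib, a difference of -0.23 ± 0.08 (limma, adjusted p = 0.0136).

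Only NEK2 (0.36 ± 0.13) and CCNB2 (0.21 ± 0.06) rose in PC9M2 over the whole course. BIRC5 ranged from 11.71 to 13.77 without treatment and from 12.47 to 13.81 with gefitinib, and its mean difference of 0.08 ± 0.09 was not called, although it was 0.63 ± 0.10 higher in the late window. PLK1 ranged from 7.30 to 10.14 without treatment and from 8.03 to 9.97 with gefitinib, and was likewise called only in the late window (0.52 ± 0.16). BIRC5 and PLK1 were the 2 members whose difference rose from early to late in both lines, by 0.74 ± 0.14 and 0.63 ± 0.21 in PC9M2. AURKA ranged from 10.59 to 11.77 without treatment and from 10.33 to 11.64 with gefitinib, and KIF20A from 8.59 to 10.38 and from 8.76 to 10.42. Neither was called over the whole course (-0.17 ± 0.08 and 0.04 ± 0.08).

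**Figure D3:**
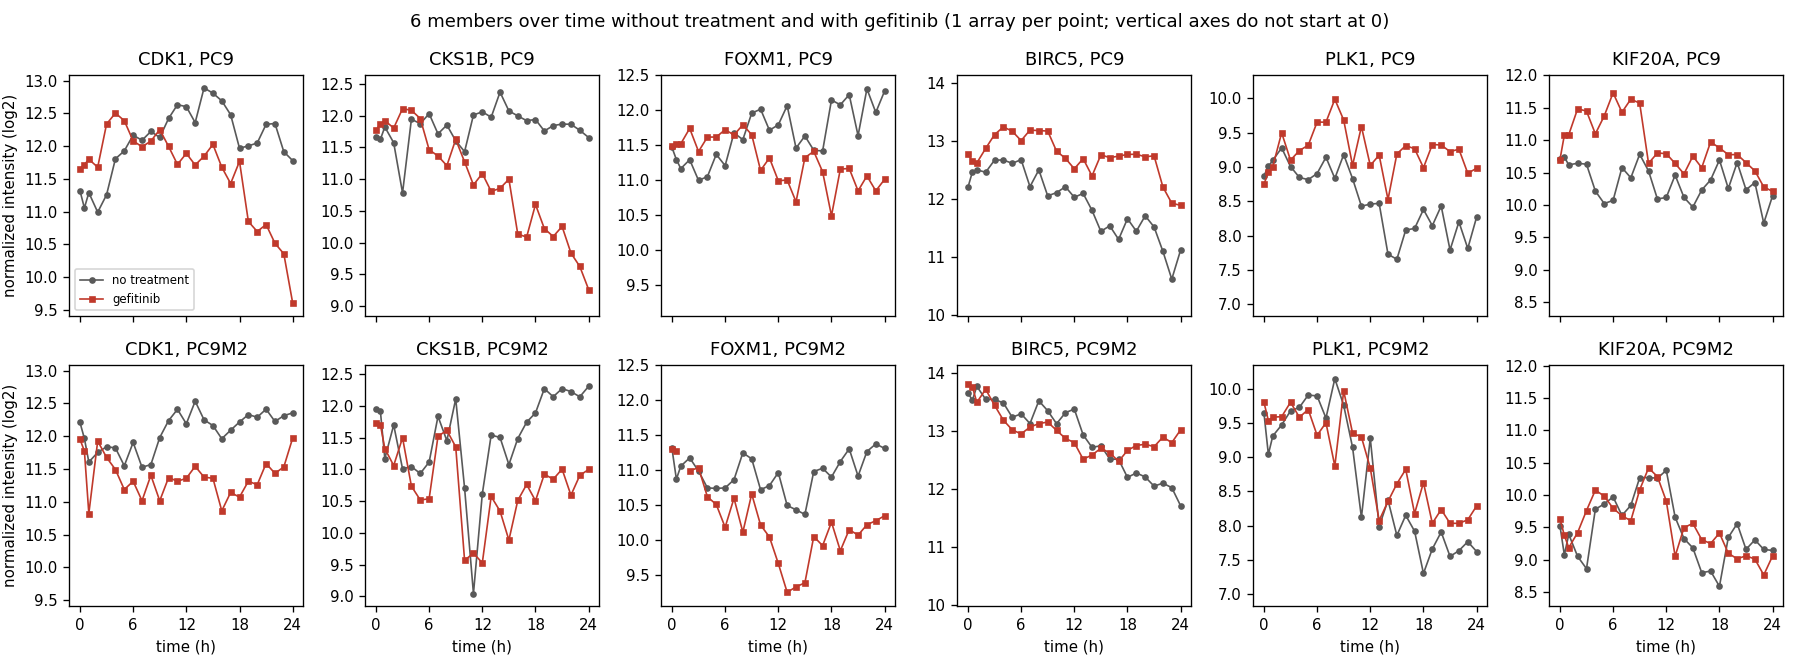
Normalized intensity (log2) of CDK1, CKS1B, FOXM1, BIRC5, PLK1 and KIF20A against time in hours without treatment (grey) and with gefitinib (red) in PC9 (top) and PC9M2 (bottom). Each point is 1 array and the vertical axes do not start at 0. CDK1 with gefitinib in PC9 crosses from above to below its control and reaches 9.61 at 24 h, whereas BIRC5 with gefitinib lies above its control at all 26 time points in PC9.

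Whether the effect of gefitinib differed between PC9 and PC9M2 was tested for each gene at matched time points. It was lower in PC9M2 for 20 of the 38 members and higher for 0, against 16.9% and 17% of all tested genes, and the median was -0.29 for the members and 0.01 for all tested genes. All 5 kinesins were among the 20. BIRC5 had the lowest value, -0.71 ± 0.09 (below 0 at 24 of 26 time points, limma, adjusted p = 5.92e-07), followed by DLGAP5 with -0.58 ± 0.08 and KIF20A with -0.54 ± 0.11. For KIF20A this set 0.58 in PC9 against 0.04 in PC9M2, and for PTTG1, with -0.49 ± 0.07, it set 0.04 against -0.46. CDK1 (-0.21 ± 0.14), CKS1B (0.11 ± 0.13), CDC20 (-0.13 ± 0.12), AURKA (-0.12 ± 0.11), CENPA (-0.09 ± 0.10), BUB1B (-0.30 ± 0.13) and MKI67 (-0.29 ± 0.12) were not called in this test. Of the members with the largest falls, MAD2L1 (0.07 ± 0.15) and CDKN3 (-0.18 ± 0.11), were not called either. BIRC5 alone was called at time points 3 h apart, and with the courses unpaired 7 members were, all lower in PC9M2.

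With EGF present, more members were higher than lower with gefitinib in PC9. Gefitinib with EGF against EGF alone gave 20 members higher and 8 lower in PC9, against 39% and 39.9% of all tested genes, with a median of 0.22 for the members and -0.01 for all tested genes. The difference of the member means was above 0 at all 18 time points up to 16 h, was 0.76 at 5 h, and was -0.68 at 24 h. BIRC5 was 1.28 ± 0.12 higher, NEK2 1.18 ± 0.12, KIF20A 1.06 ± 0.07 and PLK1 1.04 ± 0.12. BIRC5, KIF20A and KIF11 were higher at 26 of 26 time points. Genes not called without EGF, such as CCNB1 (0.38 ± 0.05), TOP2A (0.47 ± 0.07), AURKA (0.26 ± 0.08) and BUB1B (0.30 ± 0.06), were higher here, whereas MAD2L1 (-0.84 ± 0.16), CDKN3 (-0.68 ± 0.13) and CKS1B (-0.63 ± 0.15) were lower. CDK1 (-0.21 ± 0.12) and FOXM1 (-0.09 ± 0.10) were not called. MKI67 was 0.23 ± 0.06 higher with gefitinib and EGF than with EGF, against 0.23 ± 0.08 lower with gefitinib than without treatment. Whether the effect of gefitinib differed with and without EGF was not tested for any gene.

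In PC9M2 the same comparison gave 6 members higher and 25 lower, against 36.7% and 37.8% of all tested genes, with a median of -0.31 for the members and -0.02 for all tested genes. CDKN3 (-1.15 ± 0.13), MAD2L1 (-1.07 ± 0.11) and ANLN (-0.94 ± 0.12) were the lowest, and NEK2 (0.64 ± 0.10), CCNB2 (0.36 ± 0.06) and PLK1 (0.30 ± 0.08) the highest of those called. At time points 3 h apart 1 member was called higher and 18 lower, and with the variance inflated for the correlation of neighbouring time points 2 and 9 were.

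EGF alone, against no treatment, gave small and one-sided differences in PC9. Of the 38 members 0 were higher and 23 lower, against 11.3% and 14.3% of all tested genes, with a median of -0.18 for the members and -0.01 for all genes. Only 3 members were called lower at time points 3 h apart and 2 with the courses unpaired. The largest falls were those of NEK2 (-0.42 ± 0.08), CCNB2 (-0.33 ± 0.05) and BIRC5 (-0.32 ± 0.05). All 5 kinesins fell, by 0.17 to 0.29. CCNB1 (-0.27 ± 0.05), CDK1 (-0.21 ± 0.05), BUB1B (-0.24 ± 0.05), TOP2A (-0.22 ± 0.07), MKI67 (-0.28 ± 0.06), FOXM1 (-0.18 ± 0.05) and AURKA (-0.15 ± 0.06) fell as well, and PLK1, CDC20, CENPA and CKS1B were not called. In PC9M2 EGF gave 0 members higher and 3 lower (BIRC5, CCNB2 and KIF11, by 0.17, 0.17 and 0.15), against 4.09% and 5.04% of all genes. The gefitinib and EGF comparisons share the untreated arrays, so a deviation of those arrays enters both. The EGF arrays are shared too, as the treated side here and as the baseline of gefitinib with EGF. A low deviation of the EGF arrays would thus lower the values here and raise those of gefitinib with EGF.

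The lines were then compared without drug. The mitotic genes were mostly lower in PC9M2. Without treatment 5 members were higher and 24 lower in PC9M2 than in PC9, against 31.1% and 37% of all tested genes, with a median of -0.33 for the members and -0.05 for all tested genes. With gefitinib 1 was higher and 30 lower, against 30.7% and 34.3%, with medians of -0.61 and -0.03. Scan day and line cannot be told apart in these values.

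FOXM1 was lower in PC9M2 at 26 of 26 time points without treatment, by 0.70 ± 0.09, and at all 25 measured with gefitinib, by 1.01 ± 0.10. AURKA was lower at 26 of 26 time points without treatment, by 0.65 ± 0.07, and CDC25C likewise, by 0.78 ± 0.07. KIF20A was 0.89 ± 0.12 lower without treatment and 1.43 ± 0.09 lower with gefitinib. These 4 genes were called as lower, in both comparisons, under all 14 alternative settings that test both directions. CDC20 (-0.50 ± 0.09), CENPA (-0.59 ± 0.08), CCNB1 (-0.40 ± 0.07), MKI67 (-0.41 ± 0.09), TOP2A (-0.37 ± 0.11) and BUB1B (-0.29 ± 0.09) were lower without treatment too. CDK1 (0.01 ± 0.10), CKS1B (-0.30 ± 0.15) and PLK1 (0.18 ± 0.12) were not called.

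BIRC5 went the other way. It was higher in PC9M2 at 26 of 26 time points without treatment, by 0.97 ± 0.07 (limma, adjusted p = 1.11e-13), and by 0.26 ± 0.09 with gefitinib, where it was higher at 13 of 26 time points. NUF2 (0.35 ± 0.11), DLGAP5 (0.34 ± 0.10), HMMR (0.26 ± 0.10) and PRC1 (0.23 ± 0.07) were also higher without treatment. The lowest values were those of ECT2 (-2.02 ± 0.21) and CENPF (-1.20 ± 0.19), but both depend on the probe. The other probes of ECT2 gave -0.41 and 0.52, and the other probe of CENPF gave 0.14, so no direction is given for ECT2 and CENPF without treatment, although both count among the 24. The 3 probes of CKS1B also had both signs. With time points 3 h apart, 1 member was called higher and 14 lower without treatment.

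**Figure D4:**
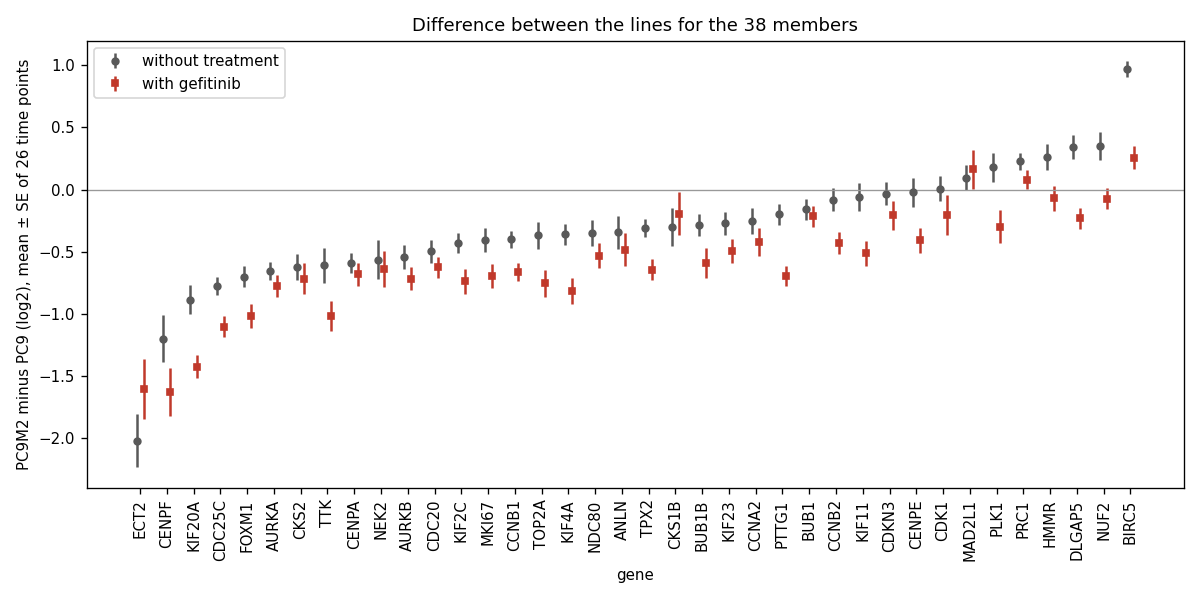
Difference between PC9M2 and PC9 (log2, mean ± SE of 26 matched time points) for the 38 members, ordered by the difference without treatment, without treatment (grey circles) and with gefitinib (red squares). Most points lie below 0, BIRC5 lies highest in both comparisons, and the values of ECT2 and CENPF are those of 1 probe each.

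Change over time was tested within each course. At time points 3 h apart 0 members changed in untreated PC9, 4 in untreated PC9M2 and 0 in PC9M2 with gefitinib. At all time points, in untreated PC9, 26 of the 38 members changed over time, against 66.3% of all tested genes, and in untreated PC9M2 30 changed, against 67.2%. The members did not change in 1 direction. Of the 26 in PC9, the fitted level at 24 h was above that at 0 h in 19 and below in 7, and of the 30 in PC9M2 it was above in 21 and below in 9. AURKB (1.47), NDC80 (1.41), NUF2 (1.27), CENPE (1.15), MAD2L1 (1.09) and FOXM1 (1.05) ended higher in PC9, while BIRC5 (-1.40), KIF11 (-0.95) and PLK1 (-0.79) ended lower. BIRC5 (-1.82) and PLK1 (-1.46) also ended lower in PC9M2. With gefitinib, 37 members changed over time in PC9, against 77.8% of all tested genes, and 33 of them ended lower than they began. Their fitted peak lay between 3 and 8 h in 32. In PC9M2 34 changed with gefitinib, against 63.7% of all genes, and 32 ended lower. The directions and peaks in all 4 courses were counted for the members only. Without the same counts over all tested genes they cannot be read as particular to the members. The largest fitted ranges with gefitinib in PC9 were those of CDK1, CKS1B (2.46) and CDKN3 (2.42).

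Correlations between members over the arrays of a course, given as a description since the arrays share trends, slides and scan days, followed the same split. Over the 703 pairs of members the median Pearson correlation was 0.09 in the 26 untreated PC9 arrays, 0.60 in the 26 PC9 arrays with gefitinib, 0.27 in untreated PC9M2 and 0.51 in PC9M2 with gefitinib. In untreated PC9 43.0% of pairs were below 0, with NDC80 and BIRC5 at -0.88. In untreated PC9M2 29.2% were below 0, with PLK1 and MAD2L1 at -0.91. With gefitinib 8.1% of pairs in PC9 and 10.0% in PC9M2 were below 0. Over all arrays, TOP2A (0.853) and CCNB1 (0.834) followed the mean of the other members most closely, and BIRC5 (-0.167) and PLK1 (0.146) least.

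Among genes that are not members, those whose level correlated most with the member mean over all arrays were PTTG2 (0.835), NUSAP1 (0.816), CDCA3 (0.812), FAM83D (0.811), KIF18A (0.809), ACSS2 (0.781), CWF19L2 (0.769), SPAG5 (0.765), NUP50 (0.763) and ALDH2 (0.761). The arrays of both lines and all treatments were pooled, so differences between lines and between treatments enter these correlations. PTTG2 is a close copy of PTTG1. NUSAP1, CDCA3, FAM83D, KIF18A and SPAG5 belong to a list of 48 other mitotic genes. Of the 46 of that list that were tested, 9 rose and 24 fell with gefitinib in PC9 (median -0.37), against 35.1% and 37.2% of all tested genes, and 3 rose and 34 fell in PC9M2 (median -0.49), against 32.6% and 34.2%. CDC25B, a relative of CDC25C, was highest in PC9 (0.95 ± 0.09), and TRIP13, which takes apart the checkpoint complex, was lowest (-2.17 ± 0.25). In PC9M2 WEE1, the kinase that inhibits CDK1, was highest (0.39 ± 0.07) and the centromere gene CENPI lowest (-1.62 ± 0.26).

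The APC/C list holds the core subunits and FZR1. Of its 12 genes, 2 rose and 2 fell with gefitinib in PC9, against 35.1% and 37.2% of all tested genes, and 2 rose and 4 fell in PC9M2, against 32.6% and 34.2%. FZR1, the activator that serves late mitosis and G1, was highest in both lines (0.78 ± 0.12 and 0.51 ± 0.12), and ANAPC7 was lowest in PC9 (-0.76 ± 0.09) and ANAPC10 in PC9M2 (-0.65 ± 0.08). Of 10 genes of the DREAM and MYB-MuvB complexes, 2 rose and 6 fell in PC9 (35.1% and 37.2% of all tested genes), and 1 rose and 5 fell in PC9M2 (32.6% and 34.2% of all tested genes). RBL2, the pocket protein p130 of DREAM, was highest in both lines (1.26 ± 0.18 and 0.86 ± 0.07), and MYBL2, the activator of the mitotic complex, was lowest (-1.61 ± 0.28 and -1.23 ± 0.15). In PC9 the difference of MYBL2 fell by 3.38 ± 0.23 from the early to the late window, and that of RBL2 rose by 1.95 ± 0.25.

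Nearly all genes of DNA replication fell. Of 26 tested, 0 rose and 23 fell with gefitinib in PC9 (median -1.11), against 35.1% and 37.2% of all tested genes, and 0 rose and 25 fell in PC9M2 (median -0.81), against 32.6% and 34.2%. CCNE1, the cyclin that acts at the start of S phase, was lowest in both lines (-2.53 ± 0.16 and -1.83 ± 0.09). Whether this list differs from the mitotic genes was not tested.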

How the data were processed

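RNA of 8 courses (2 lines, 4 treatments) was hybridised to Agilent 44K 1-colour arrays, 1 array per time point. The deposited intensities are Cy3 spot signals that the authors' scanner software, Agilent Feature Extraction, had corrected for background and spatial trends, with flags (0 or 1) for other spot properties. The authors also deposited a table of quantile-normalized linear intensities. The processed signals of 43376 non-control features were quantile normalized over all arrays, set to a floor of 1 and turned into log2 values. Outlier spots (0.0633% of member values) were removed, and spots of a probe were averaged. Probes were named by accession through RefSeq (24794 of 41000 matched), and the probe with the largest variance stood for a gene, as in the study's methods. Genes were tested whose probe the scanner software flagged as well above background on 13 or more of the 26 arrays of any course.

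Courses were compared by limma (version 3.58.1, R 4.3.3) on the differences at matched time points, with Benjamini-Hochberg adjustment over 13263 genes and a threshold of 0.05. Change over time was tested by limma's F-test on a natural spline with 4 degrees of freedom. Labels carry no replicate numbers, so courses were paired by time point, and the 4 treatments of a time point also shared a slide. The normexp alternative (offset 50) used the median spot signals in place of the mean. The number of arrays limits the precision. The tests were checked on simulated data whose time points were drawn independently. That check does not cover the correlation of neighbouring time points in the real courses. The members and lists were chosen with earlier results of these data known. Named genes were 12 members set by role, the 3 members with the largest rise and fall called in each comparison, and the 10 other genes that followed the member mean most closely. Values of NDC80, TTK and others beside these were chosen after they were seen. Python 3.11.15 searched the promoter sequences and matplotlib 3.10.9 drew the figures.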

Additional observations from a re-analysis of the deposited data

Results flagged for a closer look

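The difference in the effect of gefitinib, PC9M2 minus PC9, passed limma's test for 20 of the 38 members, all with a lower effect in PC9M2. Of all tested genes 16.9% were called lower and 17% higher. At time points 3 h apart BIRC5 alone of the members was called. The difference was -0.71 for BIRC5 (0.79 in PC9, 0.08 in PC9M2), -0.58 for DLGAP5 (0.32 and -0.25), -0.54 for KIF20A (0.58 and 0.04) and -0.48 for PLK1 (0.70 and 0.22). DLGAP5 was called higher in PC9 and lower in PC9M2. The difference between the lines was -0.495 for the securin gene PTTG1 and -0.41 for TOP2A, whose effects were called in PC9M2 and not in PC9. The other kinesins gave -0.46 (KIF4A), -0.45 (KIF11), -0.31 (KIF2C) and -0.22 (KIF23). At the kinetochore the values were -0.43 for CENPF, -0.42 for NUF2 and -0.39 for CENPE. Of the checkpoint and spindle genes, TTK gave -0.41, HMMR -0.36 and TPX2 -0.33. Of the cyclins and their regulators, CCNB2 gave -0.35, CDC25C -0.33 and CCNB1 -0.26, and the transcription factor FOXM1 gave -0.29. The causes of these differences were not tested.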

How the results depend on the processing

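Counts of members called moved most where fewer time points or the correlation between them entered the test. At time points 3 h apart, 12 members were called for gefitinib in PC9, 19 for gefitinib with EGF in PC9M2, 3 for EGF in PC9 and 0 in PC9M2, 15 between the untreated lines, 1 for the difference of the effects, 11 for late against early in each line, and over time 0 in untreated PC9, 4 in untreated PC9M2 and 0 in PC9M2 with gefitinib. Fewer samples entered these tests. The share of all tested genes called under each alternative is not given here. With the variance inflated for autocorrelation, 9 were called for gefitinib in PC9, 17 in PC9M2, 16 and 11 with EGF present, and 1 for EGF in PC9M2. With courses unpaired, that is with no replicate block, 2 and 0 were called for EGF in PC9 and PC9M2 and 7 for the difference of the effects, and the other counts stayed within 1.5 times. With scan day as a random block, 1 was called for EGF in PC9M2 and 13 over time in PC9M2 with gefitinib. For EGF in PC9M2, normexp gave 6 and the probe with the highest mean 5, against 3. A test for higher levels in PC9M2 alone, which cannot call lower ones, gave 5 without treatment and 1 with gefitinib. Between the lines without treatment, ECT2 turned to 0.45 with normexp and 0.52 with the probe of highest mean, and CENPF to 0.081 and 0.14. With gefitinib, ECT2 turned to 0.42 and 0.43, and CKS1B to 0.17 with the probe of highest mean. Beyond the change of probe or of samples, the cause was not tested. Of the named members' values under the alternatives, 2112 kept direction and side of the threshold, 173 lost the call, 25 gained it and 7 reversed direction. Each course is 1 culture series, so variation between cultures was not measured.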
